A study of Mus musculus with 20 samples.

Results

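The 9 genes described here belong to insulin signalling and glucose uptake in the adipocyte: the insulin receptor Insr, its adaptors Irs1 and Irs2, the regulatory subunit of phosphoinositide 3-kinase Pik3r1, the kinase Akt2, the vesicle gatekeeper Tbc1d4, the insulin-responsive glucose transporter Slc2a4, the basal glucose transporter Slc2a1 and the transcription factor Foxo1. They were taken by name, through the Ensembl identifiers of the count table, and all 9 were found among 46078 genes. All 9 passed the filter on low counts, which left 21464 genes to test.

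The counts came from TRAP–seq, the sequencing of messenger RNA that stays bound to tagged ribosomes, in epididymal adipose tissue of 20 AdipoERCre x NuTRAP mice, whose background the labels give as C576BL6. In these animals a tamoxifen-inducible Cre driven by the Adipoq promoter makes adipocytes express a ribosomal protein that carries GFP. Tamoxifen was given before the diets to every mouse, controls included, so only cells that had active Cre at that time, and their descendants, carry the tag. Chow-fed mice were collected at 18 weeks of age (C, n = 3), 26 weeks (CC_s, n = 3), 31 weeks (CC_l, n = 2) and 39 weeks (CCC, n = 2). H mice (18 weeks old, n = 3) had eaten a high-fat diet (HFD) for 12 weeks and HH mice (31 weeks old, n = 2) for 25 weeks. HC mice (26 weeks old, n = 3) and HHC mice (39 weeks old, n = 2) had lost weight on chow for 8 weeks after 12 and 25 weeks of HFD. Per the study, controls ate a low-fat chow during the HFD period, and both groups ate a different chow during weight loss. C and CC_l mice were thus collected on the first chow, and CC_s and CCC mice on the second. Each HFD or weight-loss group was compared with the chow group of its own age, and no chow group served 2 comparisons. The labels give the short arm (C, H, CC_s and HC) and the long arm (CC_l, HH, CCC and HHC) different library series, so that a value set across the arms differs in that as well as in age and time on diet.

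Insulin binding makes the receptor phosphorylate the adaptors, which recruit phosphoinositide 3-kinase, and the lipid that this kinase makes brings Akt2 to the membrane. Akt2 then inactivates Tbc1d4, which releases GLUT4, the product of Slc2a4, from internal vesicles to the cell surface, and it keeps Foxo1 out of the nucleus. Adipocytes rely on this route for the glucose they take up after a meal, whereas GLUT1, the product of Slc2a1, sits at the surface without insulin and is made by most cell types.

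The libraries held between 10710277 and 36738954 counts, and 3 counts stood for 0.0815 to 0.251 CPM (counts scaled to a common library size). The adipocyte hormone Adipoq ranged from 8.94 to 13.1 log2 CPM over the 20 libraries. On the first principal component of all genes 5 libraries stood apart, C replicates 1 and 2, HC replicate 3, CC_l replicate 1 and CCC replicate 2, with scores of -189 to -55.3 against -29.7 to 116 in the other 15. CC_l replicate 1 also held male germ cell markers at a summed 3530 CPM, against 12.7 CPM in CC_l replicate 2. These markers summed to 544 CPM in HC replicate 3 and 129 CPM in C replicate 1. Epididymal epithelium markers summed to 1820 CPM in C replicate 1 and 139 to 1010 CPM in H, against 15.4 and 26 CPM in C replicates 2 and 3. The part of these cells in the results was not tested. Where leaving out libraries of the set of 5 ended a call or moved a value much, the value without them is given.

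Per kilobase of exon, a scale on which genes can be set against each other, Pik3r1 had the highest median level of the 9 over the 20 libraries, 41.7 CPM per kb, followed by Slc2a4 with 33.3, Akt2 with 25 and Foxo1 with 19.4. Tbc1d4 had a median of 7.03 CPM per kb, Insr 5.52, Irs2 2.64, Slc2a1 1.92 and Irs1 0.579. Irs1 rested on as few as 24 counts in 1 library. All other levels below are log2 CPM after TMM scaling, which compare 1 gene between mice.

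**Figure D1:**
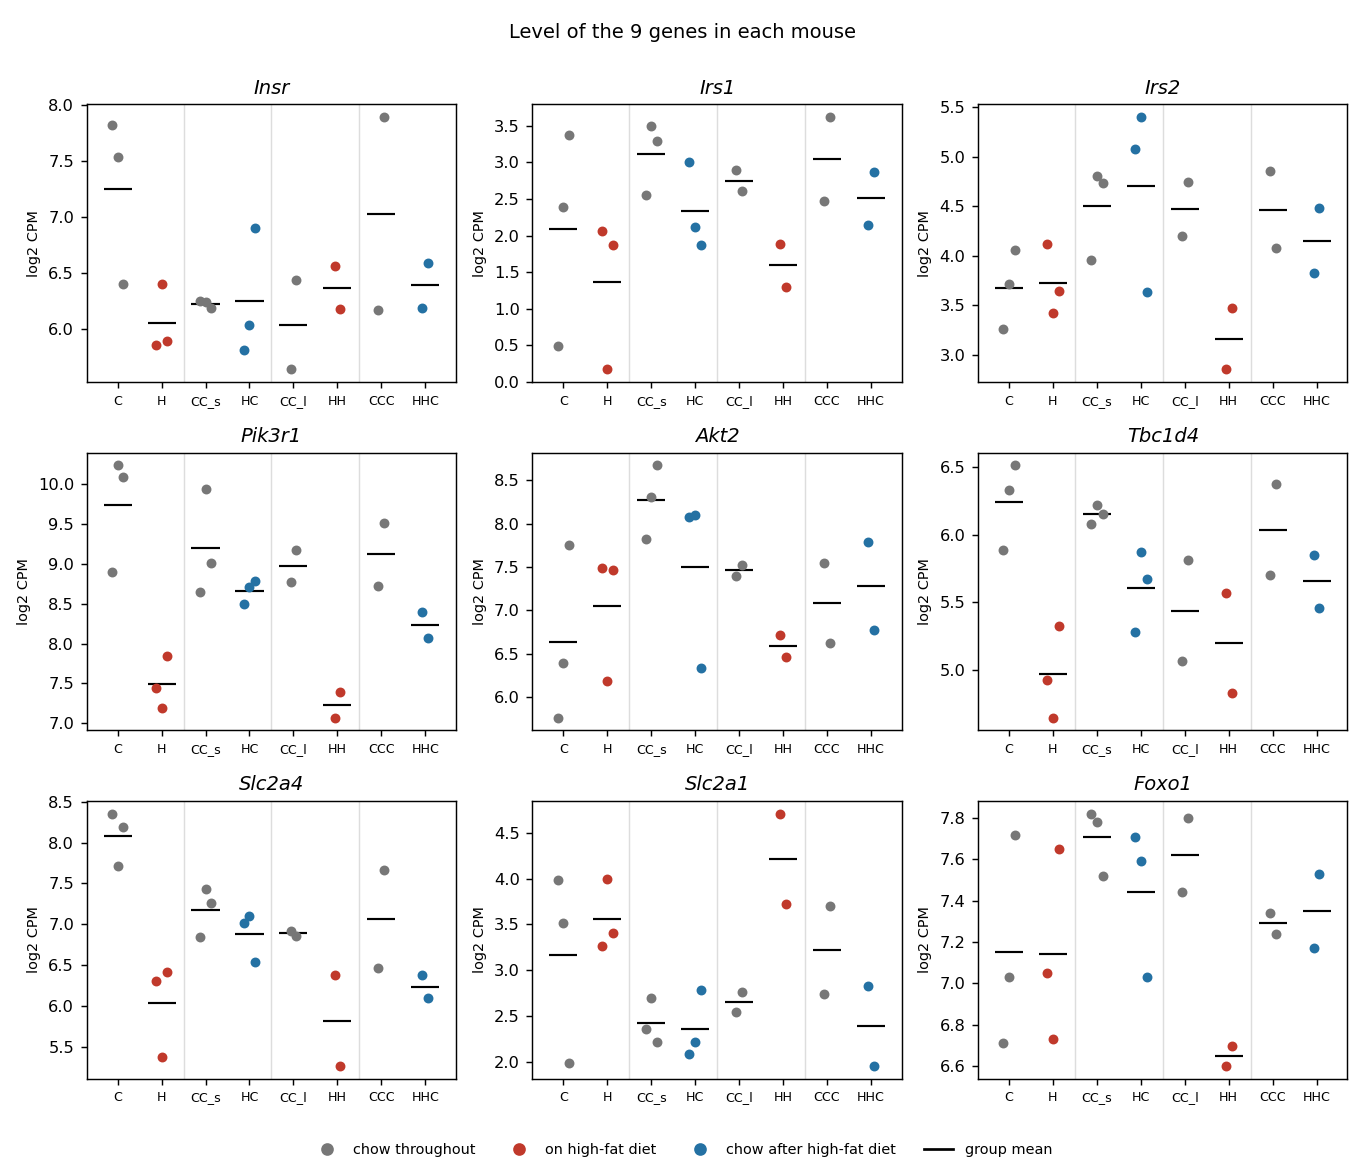
Level of each of the 9 genes in each of the 20 mice, as log2 CPM after TMM scaling (vertical axes differ between panels), in the 8 groups on the horizontal axis. Points are mice and black lines group means. Pik3r1 and Slc2a4 had no value in H mice that reached any C mouse, and Slc2a1 was higher in both HH mice than in both CC_l mice.

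The clearest difference after 12 weeks of HFD was a lower level of Pik3r1, Slc2a4 and Tbc1d4 in H than in C mice. These 3 of the 9 genes passed the call used throughout, which asks for a log2 fold change of 1 or more in size and, from the quasi-likelihood test of edgeR, a nominal p under 0.01. All 3 were lower in H, a call that 2.92% of all tested genes met in that direction, and all 3 also had an adjusted p under 0.05, as 2.12% of all tested genes did in either direction. The median log2 fold change of the 9 genes was -0.96, against -0.15 over all tested genes. Bulk libraries cannot tell fewer cells of a type from less RNA per cell, which holds for every difference given here.

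Pik3r1 (ENSMUSG00000041417, chr13:101680563-101768217 on the minus strand of mm10) encodes the regulatory subunit that binds the phosphorylated adaptors and holds the catalytic subunit. Its log2 CPM was 8.90, 10.23 and 10.09 in the C mice and 7.44, 7.19 and 7.84 in the H mice. No H mouse reached the lowest C mouse, a separation that 11.8% of all tested genes showed in the lower direction. This was a log2 fold change of -2.34 (SE 0.45), with an edgeR adjusted p of 0.0138.

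Slc2a4 (ENSMUSG00000018566, chr11:69942539-69948188, minus strand) encodes GLUT4, the transporter that insulin brings to the surface. Its log2 CPM was 8.35, 7.71 and 8.19 in C and 6.31, 5.38 and 6.42 in H, again without overlap. H against C gave -2.01 (log2, SE 0.41), with an edgeR adjusted p of 0.0166. The C mice stood above every other chow-fed mouse for this gene, as the 7 mice of the older chow groups ranged from 6.47 to 7.66.

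Tbc1d4 (ENSMUSG00000033083, chr14:101442360-101609191, minus strand) encodes the Rab GTPase-activating protein that holds GLUT4 vesicles inside until Akt phosphorylates it. Its log2 CPM was 5.89, 6.33 and 6.51 in C and 4.93, 4.65 and 5.33 in H. The groups did not overlap, and the log2 fold change of -1.27 (SE 0.32) had an edgeR adjusted p of 0.0497, just inside the threshold of 0.05.

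Insr (ENSMUSG00000005534, chr8:3122061-3279617, minus strand) encodes the receptor itself. Its log2 CPM was 7.82, 7.53 and 6.40 in C and 5.86, 6.40 and 5.89 in H, so that C replicates 1 and 2 stood high while C replicate 3 was level with H replicate 2 to 2 decimals. The log2 fold change was -1.29 (SE 0.45) with a nominal p of 0.0106 and an adjusted p of 0.151 in edgeR, and the call was not met. DESeq2 gave -1.42 with an adjusted p of 0.0318, and without C replicate 3 edgeR gave -1.61 and the call was met. Without the 5 libraries that stood apart, which include C replicates 1 and 2, the log2 fold change of Insr was -0.22.

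The calls of Pik3r1, Slc2a4 and Tbc1d4 held under the same omission, which leaves C replicate 3 as the lone C mouse. They also held without each mouse in turn, with log2 fold changes of -2.60 to -2.10 for Pik3r1, -2.19 to -1.75 for Slc2a4 and -1.47 to -1.13 for Tbc1d4. The remaining genes did not pass the test in H. Irs1 had a log2 fold change of -0.96 (SE 0.67), with C mice from 0.49 to 3.38 and H mice from 0.17 to 2.06 log2 CPM. It was -0.17 without C replicate 3 and -1.74 without the 5 libraries, and was called in neither fit. The log2 fold changes of Irs2, Akt2, Slc2a1 and Foxo1 lay between -0.03 and 0.28, and C and H mice overlapped for each of them. Akt2 was 0.28, and 1.05 without C replicate 3, again without a call. Slc2a1 went from 0.21 with all libraries to 1.75 without the 5 that stood apart. Its level was 3.99, 3.52 and 1.98 log2 CPM in C, so that the mouse left was the lowest.

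**Figure D2:**
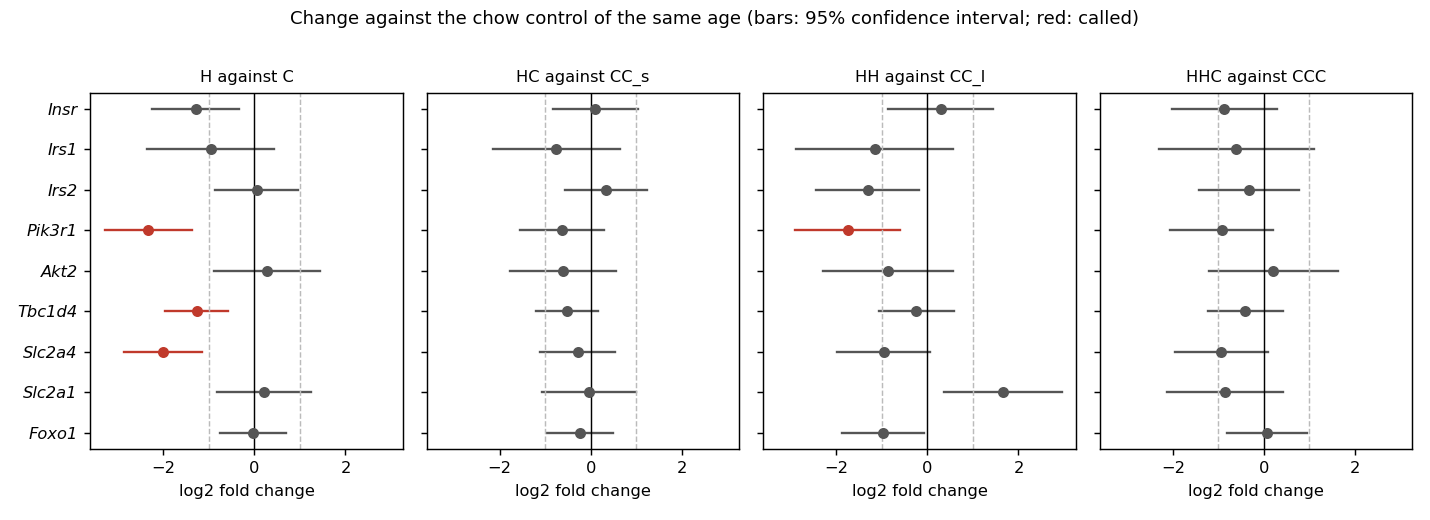
Log2 fold change of each gene in the 4 comparisons, with the 95% confidence interval of the edgeR quasi-likelihood fit. Red marks genes that met the call (nominal p under 0.01 and a log2 fold change of 1 or more in size) and dashed lines stand at log2 fold changes of -1 and 1. Pik3r1, Tbc1d4 and Slc2a4 met the call in H against C and Pik3r1 in HH against CC_l.

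Promoter sequences are printed for the members on which the results turn. RefSeq windows of 300 bases on GRCm38.p6, 250 before and 50 after a start site, matched 7 of the 9 genes by symbol, in 11 windows (Insr and Slc2a4 had none). They were searched on both strands for the E-box CACGTG, the FoxO motif GTAAACA, the GC box GGGCGG and the CCAAT box, and capitals mark every match to the E-box, the GC box or the CCAAT box, with overlapping matches joined. Of all 32851 windows, 7.15% held CACGTG, 3.65% GTAAACA, 35.7% GGGCGG and 37.4% CCAAT. Pik3r1 is shown at both of its annotated starts, Tbc1d4 as the member whose level ran closest to it, and Slc2a1 as the member that was higher in HH:
Pik3r1 distal start, chr13:101768168-101768467, minus strand: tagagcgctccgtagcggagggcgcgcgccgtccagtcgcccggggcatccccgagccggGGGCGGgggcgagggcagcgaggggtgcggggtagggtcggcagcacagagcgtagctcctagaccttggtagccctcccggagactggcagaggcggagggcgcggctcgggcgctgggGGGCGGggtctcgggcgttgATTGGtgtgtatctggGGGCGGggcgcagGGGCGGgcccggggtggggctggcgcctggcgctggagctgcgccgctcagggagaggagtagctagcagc
Pik3r1 proximal start, chr13:101692581-101692880, minus strand: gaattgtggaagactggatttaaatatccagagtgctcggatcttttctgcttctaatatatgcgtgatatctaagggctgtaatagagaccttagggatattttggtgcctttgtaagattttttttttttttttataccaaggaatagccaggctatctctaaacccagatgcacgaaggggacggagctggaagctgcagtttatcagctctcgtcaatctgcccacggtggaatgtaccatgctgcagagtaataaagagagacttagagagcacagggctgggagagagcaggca
Tbc1d4, chr14:101609142-101609441, minus strand: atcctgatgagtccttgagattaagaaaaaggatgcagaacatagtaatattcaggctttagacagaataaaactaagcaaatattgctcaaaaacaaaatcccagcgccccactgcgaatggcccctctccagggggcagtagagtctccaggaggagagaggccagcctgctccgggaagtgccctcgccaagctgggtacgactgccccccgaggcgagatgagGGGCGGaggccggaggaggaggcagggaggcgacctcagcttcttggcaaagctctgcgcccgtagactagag
Slc2a1, chr4:119108495-119108794, plus strand: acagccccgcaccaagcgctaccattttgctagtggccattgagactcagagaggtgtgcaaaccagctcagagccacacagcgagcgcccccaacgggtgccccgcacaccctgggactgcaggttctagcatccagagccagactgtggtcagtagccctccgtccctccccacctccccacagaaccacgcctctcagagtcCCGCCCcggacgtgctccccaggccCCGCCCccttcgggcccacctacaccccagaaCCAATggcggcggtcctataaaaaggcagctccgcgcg

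The distal Pik3r1 window held 4 GC boxes and 1 CCAAT box, and the proximal window held none of the 4 motifs. The Tbc1d4 window held 1 GC box, and the Slc2a1 window 2 GC boxes and 1 CCAAT box. Among all 11 windows, CACGTG was found in 2, those of Irs1 and Irs2, GGGCGG in 7, CCAAT in 5 and GTAAACA in 0. A match is a description of letters in these windows and was not set against the expression values.

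After 25 weeks of HFD, Pik3r1 was again lower, Slc2a1 was higher in both mice and 6 of the 9 genes had no overlap in the lower direction. With 2 mice a group such separation is frequent: 28.9% of all tested genes did not overlap and were lower in HH, and 26.3% were higher. Of the 9 genes 1, Pik3r1, met the call, which 1.88% of all tested genes met in the lower direction. In edgeR 0 of the 9 had an adjusted p under 0.05, against 2.07% of all tested genes, and 4 had a nominal p under 0.05, against 17.4%. In DESeq2 2 of the 9, Pik3r1 and Foxo1, had an adjusted p under 0.05, as did 8.93% of all tested genes.

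Pik3r1 had 8.77 and 9.17 log2 CPM in CC_l and 7.07 and 7.39 in HH. The log2 fold change was -1.75 (SE 0.55), with a nominal p of 0.00514 and an adjusted p of 0.109 in edgeR. Its size was close without CC_l replicate 1, at -1.93, where the call held. The call was lost without CC_l replicate 2 (-1.50), without HH replicate 1 (-1.58) and without HH replicate 2 (-1.90), fits in which the lone mouse of a group is assumed to vary like the others.

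Slc2a1 (ENSMUSG00000028645, chr4:119108711-119137983, plus strand) had 2.54 and 2.76 log2 CPM in CC_l and 4.71 and 3.72 in HH. Both HH mice lay above both CC_l mice, and HH replicate 1 was the highest of all 20 libraries. The log2 fold change was 1.66 (SE 0.61), with a nominal p of 0.015 and an adjusted p of 0.175 in edgeR, so the call was not met, except without HH replicate 2 (2.09). Without HH replicate 1 the log2 fold change was 1.10.

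Slc2a4 had 6.92 and 6.86 log2 CPM in CC_l and 6.38 and 5.27 in HH. Its log2 fold change of -0.96 (SE 0.49) had a nominal p of 0.0634 in edgeR and moved from -1.61 without HH replicate 1 to -0.49 without HH replicate 2. The 2 HH mice thus differed from each other by more than HH replicate 1 differed from the chow mice.

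Irs2, an adaptor whose gene FoxO factors are known to induce, had 4.2 and 4.74 log2 CPM in CC_l and 2.85 and 3.47 in HH. HH against CC_l gave a log2 fold change of -1.31 (SE 0.53) with a nominal p of 0.0247 in edgeR. It met the call in DESeq2 and without the 5 libraries that stood apart, where it was -1.47, but was -0.99 without CC_l replicate 2 and -1.02 without HH replicate 1, with no call.

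Foxo1, which Akt excludes from the nucleus, had 7.44 and 7.80 log2 CPM in CC_l and 6.60 and 6.70 in HH, and its log2 fold change was -0.98 (SE 0.42), with a nominal p of 0.0338 in edgeR. Irs1 and Akt2 were also without overlap and lower in HH, with log2 fold changes of -1.16 and -0.87 that did not pass the test. Insr and Tbc1d4 overlapped between the groups.

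The balance of the transporters within a library was described by the log2 ratio of Slc2a4 to Slc2a1 CPM, which does not depend on library scaling. It averaged 4.92 ± 1.13 (SD, n = 3) in C and 2.48 ± 0.95 (SD, n = 3) in H, and 4.24 ± 0.20 (SD, n = 2) in CC_l and 1.61 ± 0.09 (SD, n = 2) in HH. Neither HFD group overlapped with its chow group. After weight loss the ratio was 4.53 ± 0.67 (SD, n = 3) in HC against 4.76 ± 0.28 (SD, n = 3) in CC_s, and 3.85 ± 0.43 (SD, n = 2) in HHC against 3.84 ± 0.16 (SD, n = 2) in CCC. Mice overlapped in both weight-loss comparisons.

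**Figure D3:**
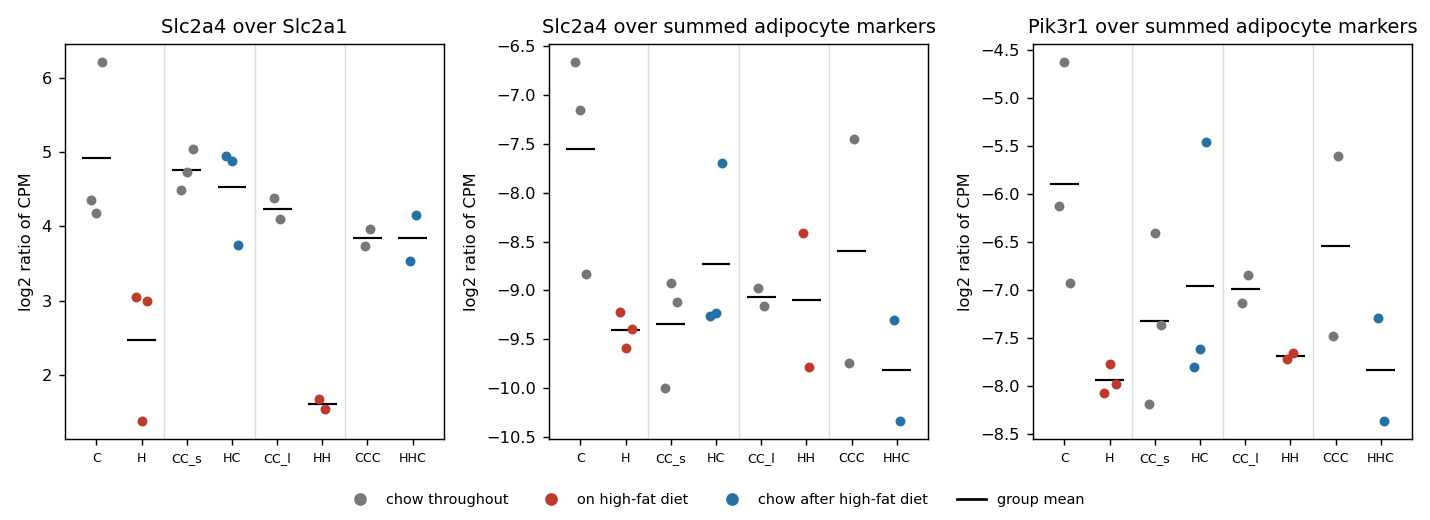
Log2 ratio of Slc2a4 to Slc2a1 CPM (left), of Slc2a4 to the summed CPM of 10 adipocyte markers (middle) and of Pik3r1 to the same sum (right) in each mouse, by group. Points are mice and black lines group means. The ratio of the transporters was 1.38 to 3.05 in H and 1.54 and 1.68 in HH, below every chow-fed mouse.

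Markers of other cells moved with the HFD groups. The 12 macrophage markers summed to 732 to 3840 CPM in H against 247 to 467 in C, and to 4130 and 5040 CPM in HH against 232 and 591 in CC_l. The 8 endothelial markers summed to 1470 to 2080 CPM in H against 341 to 846 in C, and to 915 and 1780 CPM in HH against 185 and 227 in CC_l. The 10 adipocyte markers summed to 28300 and 33800 CPM in HH against 61400 and 66300 in CC_l, while H mice, with 32000 to 57700, lay within the range of C mice, 29700 to 133000. The 8 adipocyte progenitor markers summed to 3320 and 4520 CPM in HH against 463 and 693 in CC_l. No marker of these 4 lists was at 0 counts in any library. The part of these cells in the differences above was not tested.

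Within the adipocyte sum Fabp4 weighs most, with a median of 37500 CPM over the 20 libraries, against 4670 for Cfd, the next. The 10 adipocyte markers did not move as 1, as 3 were higher and 7 lower in H than in C. Relative to their sum, Pik3r1 differed by -2.05 (log2) between H and C and Slc2a4 by -1.85, both without overlap, and Tbc1d4 by -1.08 with overlap. Between HH and CC_l the same ratio gave -0.70 for Pik3r1, without overlap, and -0.02 for Slc2a4, with overlap. Slc2a1 relative to these markers was higher in HH by 2.62 (log2) and Insr by 1.38, neither with overlap. The marker sum itself was lower in HH, and the log2 fold change of Insr in CPM was 0.29, with overlap. What share of all tested genes had no overlap relative to these markers was not computed. Irs1 (-0.14), Irs2 (-0.28), Akt2 (0.17), Foxo1 (0.08) and Tbc1d4 (0.80) overlapped between HH and CC_l on this scale. The lower levels of Irs1, Irs2, Akt2 and Foxo1 in HH were thus without overlap in log2 CPM only. These ratios are descriptions with no test.

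**Figure D4:**
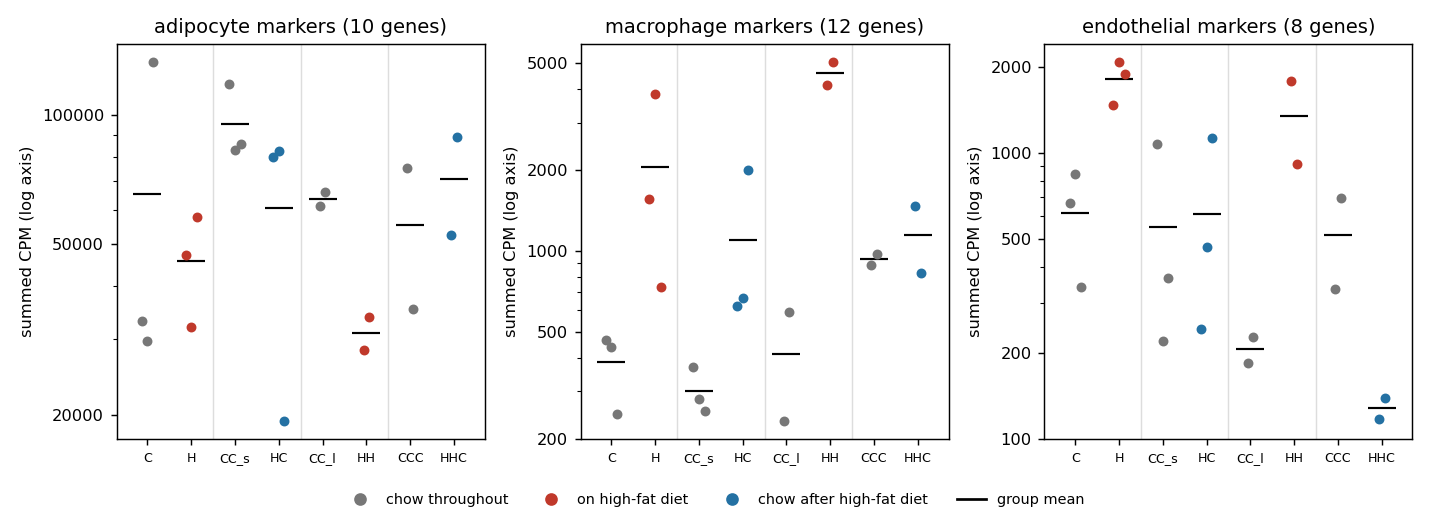
Summed CPM of 10 adipocyte, 12 macrophage and 8 endothelial marker genes in each mouse, on logarithmic axes, by group. Points are mice and black lines arithmetic group means. Macrophage markers were higher in every H mouse than in every C mouse and higher in both HH mice than in both CC_l mice.

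After weight loss none of the 9 genes met the call in either arm. In HC against CC_s edgeR called 0 of the 9, 0 of them had a nominal p under 0.05, and DESeq2 also called 0. Over all tested genes 1.74% met the call in edgeR and 3.39% in DESeq2, and in edgeR 8.69% had a nominal p under 0.05. The median log2 fold change of the 9 genes was -0.29, against 0.27 over all tested genes.

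Slc2a4 had 6.85, 7.43 and 7.26 log2 CPM in CC_s and 7.02, 7.10 and 6.54 in HC, a log2 fold change of -0.29 with a 95% confidence interval from -1.12 to 0.54. Pik3r1 had 8.65, 9.93 and 9.01 in CC_s and 8.49, 8.71 and 8.78 in HC, a log2 fold change of -0.64 (95% confidence interval -1.55 to 0.28). Tbc1d4 had 6.08, 6.22 and 6.15 in CC_s and 5.28, 5.87 and 5.67 in HC. In log2 CPM it was the only 1 of the 9 whose groups did not overlap. In the lower direction 5.82% of all tested genes were without overlap. The log2 fold change of Tbc1d4 was -0.53 (95% confidence interval -1.20 to 0.15). Macrophage markers summed to 622 to 2000 CPM in HC against 254 to 370 in CC_s and adipocyte markers to 19300 to 82600 CPM against 83000 to 118000, both without overlap. Relative to the adipocyte markers Tbc1d4 was higher in HC by 0.36 (log2), with overlap, and the part of these cells in the result was not tested.

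For Slc2a4 and Pik3r1 the intervals leave out a change as large as that measured in H against C. The difference between the H and the HC effect was -1.72 (SE 0.56) for Slc2a4, with a nominal p of 0.00687 and an adjusted p of 0.325 in edgeR, and -1.70 (SE 0.62) for Pik3r1, with a nominal p of 0.0134 and an adjusted p of 0.34. In edgeR 0 of the 9 genes, and 0% of all tested genes, had an adjusted p under 0.05 for this difference, and 3 of the 9 had a nominal p under 0.05 against 11.8% of all tested genes. DESeq2, which found 400 genes in all, gave adjusted p values of 0.036 for Slc2a4 and 0.035 for Pik3r1, so that the outcome of this test depends on the tool.

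In HHC against CCC edgeR called 0 of the 9 genes, 0 had a nominal p under 0.05, and DESeq2 called 0. The call was met by 3.12% of all tested genes, and 10.7% had a nominal p under 0.05. The median log2 fold change of the 9 was -0.61, against -0.06 over all tested genes. Scaling by DESeq2's size factors raised the median log2 fold change of all genes by 0.13 in this comparison.

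In log2 CPM, Pik3r1 and Slc2a4 were the 2 genes of the 9 whose HHC mice both lay below both CCC mice, as 20.3% of all tested genes did. Relative to the summed adipocyte markers they differed by -1.29 and -1.23 (log2), both with overlap. Irs2 was without overlap on that scale, at -0.72 in HHC and 1.11 in HC, and overlapped in log2 CPM in both. Pik3r1 had 8.72 and 9.51 log2 CPM in CCC and 8.39 and 8.07 in HHC, with a log2 fold change of -0.93 (95% confidence interval -2.06 to 0.20). The HHC mice thus stood between the HH mice, at 7.07 and 7.39, and the CCC mice. Slc2a4 had 6.47 and 7.66 in CCC and 6.38 and 6.10 in HHC, with a log2 fold change of -0.94 (95% confidence interval -1.96 to 0.09). Both HHC values lay within the range of the H and HH mice, 5.27 to 6.42, and CCC replicate 1 lay just above it, at 6.47. The H and HH mice were younger and on HFD, and the H mice also belonged to the other arm. Without CCC replicate 2, 1 of the 5 libraries that stood apart, the log2 fold changes were -0.49 for Pik3r1 and -0.22 for Slc2a4.

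The log2 fold change of Slc2a1 was -0.85 (SE 0.61) in HHC, with 2.74 and 3.70 log2 CPM in CCC and 2.83 and 1.95 in HHC. It was -0.29 without CCC replicate 2, -0.21 without the 5 libraries and -1.37 without HHC replicate 1. The difference between its HH and HHC effects, which rests on that value, was 2.51 (SE 0.86), with a nominal p of 0.00961 and an adjusted p of 0.168 in edgeR, when 0.815% of all tested genes had an adjusted p under 0.05. Of the 9 genes 1, Slc2a1, had a nominal p under 0.05 for that difference in edgeR, against 15.5% of all tested genes. In DESeq2 Foxo1 joined it, with a nominal p of 0.0116 and an adjusted p of 0.101. For Slc2a4 the HH and HHC effects differed by -0.03 (95% confidence interval -1.46 to 1.41), an interval too wide to show that they were alike. The endothelial markers summed to 118 and 139 CPM in HHC against 334 and 698 in CCC, whereas macrophage markers overlapped, and their part in these values was not tested.

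Between the arms, the 12-week and the 25-week HFD effects differed with a nominal p under 0.05 in edgeR for 1 of the 9 genes. This was Insr (-1.58, SE 0.71, edgeR adjusted p = 0.848). The effects after weight loss did so for 0 of the 9. In DESeq2 these counts were 4 and 0, and 0 of the 9 had an adjusted p under 0.05 for either difference. The share of all genes at that nominal p was not computed for DESeq2. Over the whole table edgeR gave 0 genes with an adjusted p under 0.05 for either difference, with 5.79% and 11.8% of genes at a nominal p under 0.05, and DESeq2 gave 39 and 294 genes.

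When the 8 groups were put in order of mean log2 CPM, Pik3r1 ran from C at 9.74 ± 0.73 (SD, n = 3) down to HH at 7.23 ± 0.23 (SD, n = 2), and 2 of its 7 neighbouring pairs, HC over HHC and HHC over H, did not overlap. Slc2a4 ran from C at 8.08 ± 0.34 (SD, n = 3) to HH at 5.82 ± 0.79 (SD, n = 2), with C over CC_s and CC_l over HHC without overlap. For Foxo1 only H over HH was without overlap. These pairs of Pik3r1 and Foxo1 set the short arm against the long arm. The share of all tested genes without overlap was not computed for neighbouring pairs. In the other 6 genes every pair of neighbouring groups overlapped. Most pairs overlapped for Pik3r1, Slc2a4 and Foxo1 too, so the order cannot be read as a ranking for any gene. Slc2a1 was highest in HH, at 4.22 ± 0.70 (SD, n = 2), and lowest in HC, at 2.36 ± 0.37 (SD, n = 3). Irs1 ran from 3.12 ± 0.49 (SD, n = 3) in CC_s to 1.36 ± 1.04 (SD, n = 3) in H.

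Over the 20 libraries the members fell into sets that ran together, as a description of points that share diets and libraries. Pik3r1 ran with Tbc1d4 (Pearson r = 0.83) and with Slc2a4 (r = 0.82), and Tbc1d4 with Slc2a4 (r = 0.79). Akt2 ran with Foxo1 (r = 0.77) and with Irs2 (r = 0.72). Slc2a1 ran against Foxo1 (r = -0.81) and Irs2 (r = -0.77), and Insr against Akt2 (r = -0.66). Insr was high and Akt2 low in C replicates 1 and 2, HC replicate 3 and CCC replicate 2, which are 4 of the 5 libraries that stood apart.

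Among genes with a mean of at least 3 log2 CPM, those whose level most resembled Slc2a4 were Grina and Lman2l (r = 0.92 for both). Lman2l (r = 0.92) and Acacb, a fatty acid metabolism enzyme (r = 0.90), came closest to Pik3r1, and Tef (r = 0.91) and Ddx42 (r = 0.90) to Tbc1d4. Plekhj1 and Lipe, the hormone-sensitive lipase (r = 0.95 for both), came closest to Akt2, and Relch (r = 0.94) and Uty (r = 0.93) to Insr. The nearest to Slc2a1 were Mfap3 (r = 0.91) and Ganab (r = 0.89), to Irs2 Stk11 (r = 0.92) and Stxbp2 (r = 0.86), and to Irs1 Dcun1d3 (r = 0.88) and Zhx2 (r = 0.83).

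Of 99 other pathway genes in 7 lists, all tested, 5 met the call in H, all lower (2.92% of all tested genes did), 0 in HC (1.74%), 4 in HH, all lower (1.88%), and 1 higher and 4 lower in HHC, where 0.447% and 2.67% of all tested genes met the call in those directions. In HC 4 of them had a nominal p under 0.05 in edgeR, and DESeq2 called 2, against 3.39% of all tested genes. Without the 5 libraries that stood apart 18 were called in H, with the lone C mouse that this leaves, 0 in HC, 4 in HH and 2 in HHC, where 10.1%, 1.54%, 6.12% and 1.28% of all genes tested in that fit were called. Their median log2 fold changes were 0.02, -0.04, -0.18 and 0.05, against -0.15, 0.27, -0.23 and -0.06 over all tested genes. None of the 19 lipid kinase and Akt-axis kinases and none of the 14 inhibitors of insulin signalling met the call in any of the 4 comparisons.

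Of the 9 factors known to act on Slc2a4 transcription, 2 were called lower in H, a call that 2.92% of all tested genes met. Mlxipl, which encodes the glucose-responsive factor ChREBP, had 7.83, 8.26 and 6.93 log2 CPM in C and 4.38, 3.13 and 4.56 in H, a log2 fold change of -3.63 (SE 0.69, edgeR adjusted p = 0.0116). Srebf1, a regulator of lipid synthesis, had a log2 fold change of -1.93 (SE 0.47, edgeR adjusted p = 0.0405). Both calls held without each mouse in turn and without the 5 libraries that stood apart.

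Both genes were also called lower in HHC, Mlxipl with -3.23 (SE 0.82) and Srebf1 with -2.36 (SE 0.58), with edgeR adjusted p values of 0.202 and 0.196. CCC replicate 2 stood high for both, at 8.92 log2 CPM for Mlxipl and 9.78 for Srebf1. Without it the log2 fold changes were -1.40 and -1.51 and neither met the call. Klf15, a factor that activates Slc2a4 in adipocytes, was called lower in HH, with a log2 fold change of -1.67 (SE 0.52, edgeR adjusted p = 0.105).

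Among the 11 other glucose transporters and hexokinases, Hk2, the insulin-regulated hexokinase that traps glucose in the cell, had 8.38, 8.02 and 10.09 log2 CPM in C and 6.44, 5.65 and 7.74 in H. Its log2 fold change was -2.27 (SE 0.61, edgeR adjusted p = 0.063), and -1.35 with the call lost without C replicate 3. Without the 5 libraries it was -3.11. Slc2a3, a high-affinity glucose transporter also made in germ cells, was called lower in H (-2.49, SE 0.70, edgeR adjusted p = 0.0739) but not without the 5 libraries that stood apart (-1.17). It was also called lower in HH (-3.87, SE 0.91, edgeR adjusted p = 0.0367). Without CC_l replicate 1, the library with the highest sum of germ cell markers, its log2 fold change in HH was -1.81 and the call was lost. Without all 5 libraries, of which that is 1, it was -1.73 and the call held. The fructose transporter Slc2a5 was called lower in HH at -5.98 (SE 1.80, edgeR adjusted p = 0.0965), a value that became -0.20 without that library. Slc2a13, the inositol transporter of this gene family, was called lower in HHC at -2.0 (SE 0.59, edgeR adjusted p = 0.276). It was not called at -1.13 without CCC replicate 2.

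Of the 22 genes of GLUT4 vesicle traffic, 1 was called lower in H, where 2.92% of all tested genes were. Ralgapa2, a subunit of the complex that holds RalA inactive, had 6.95, 7.44 and 7.12 log2 CPM in C and 5.57, 5.39 and 5.90 in H. The log2 fold change was -1.55 (SE 0.38, edgeR adjusted p = 0.0422), and the call held without each mouse in turn and without the 5 libraries that stood apart. In HHC it was called at -1.35 (SE 0.46, edgeR adjusted p = 0.31), which became -0.30 without CCC replicate 2. Sh2b1, an adaptor that enhances receptor signalling, was called lower in HH at -1.37 (SE 0.47, edgeR adjusted p = 0.144). It was 1 of 11 receptor and adaptor partners, and 1.88% of all tested genes were called lower in HH. No fit that left out a mouse of that comparison called Sh2b1.

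Of the 13 FoxO factors and genes that FoxO is known to induce, 1 was called. It was higher in HHC, a call that 0.447% of all tested genes met in that direction. Pdk4, the kinase that shuts off pyruvate entry into the mitochondrial cycle, had 3.83 and 3.83 log2 CPM in CCC and 8.23 and 5.83 in HHC. The log2 fold change was 3.66 (SE 0.56, edgeR adjusted p = 0.0974). Pdk4 was also higher, without overlap and without a call, in H (0.76), HC (1.12) and HH (1.26). Of all 21464 tested genes, 2869, 1719 and 5651 were higher without overlap in those comparisons, in that order. In HHC the call held without each mouse in turn, with log2 fold changes from 2.0 to 4.4. The median log2 fold change of the 13 genes in HHC was 0.94, against -0.06 over all tested genes.

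Other single mice ended some of these calls without turning a direction. The calls in H were lost for Slc2a3 without C replicate 1 (-2.10), H replicate 1 (-2.35) or H replicate 2 (-2.26), and for Hk2 without H replicate 1 (-2.09) or H replicate 2 (-1.90). In HH, Klf15 lost its call without CC_l replicate 2 (-1.49), HH replicate 1 (-1.86) or HH replicate 2 (-1.48), and Slc2a5 without HH replicate 1 (-5.11). In HHC, Ralgapa2 and Slc2a13 lost theirs without HHC replicate 1 (-1.45 and -1.76). Without HHC replicate 2 the calls of Ralgapa2 (-1.26), Srebf1 (-1.89) and Mlxipl (-2.71) were lost. A fit with the replicate number as a block also ended the calls of Ralgapa2 in HHC (-1.27) and of Sh2b1 (-1.36) and Slc2a5 (-5.89) in HH.

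**Figure D5:**
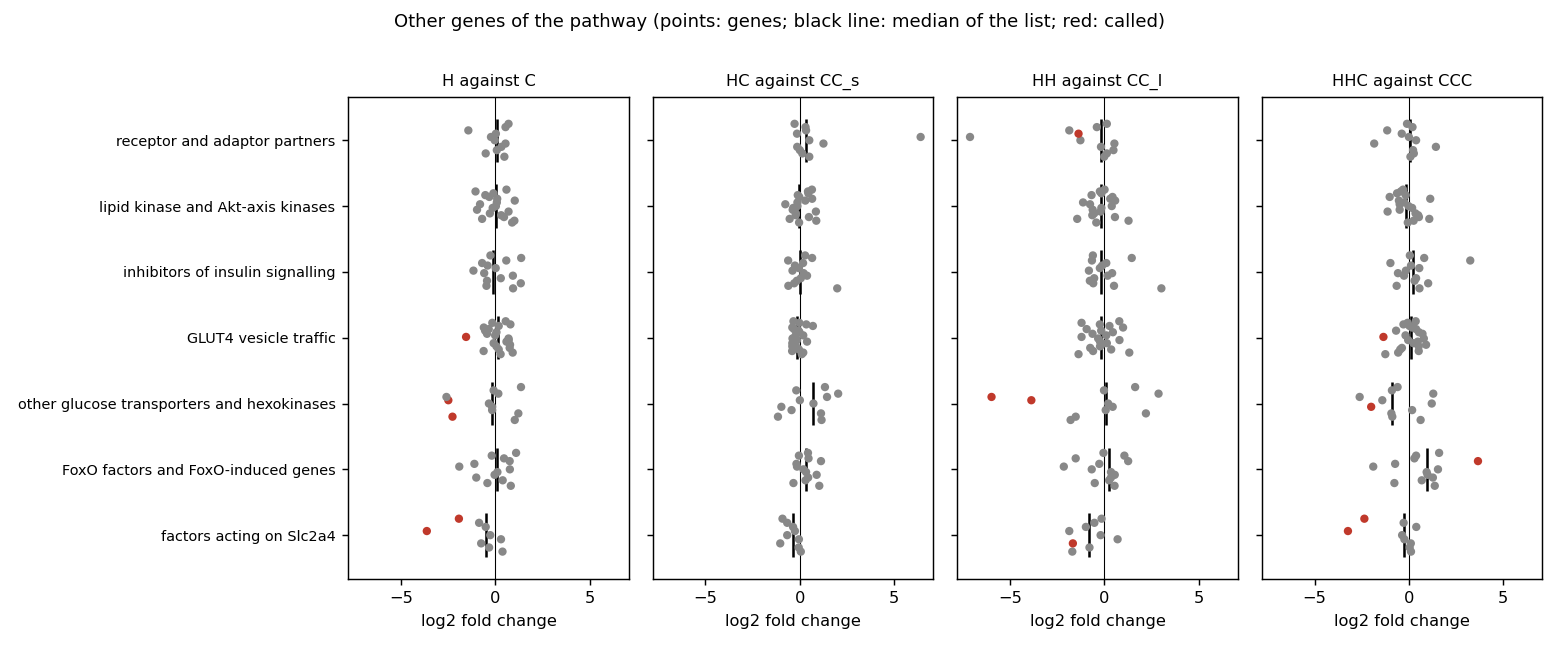
Log2 fold change of the 99 other pathway genes in 7 lists for each of the 4 comparisons. Points are genes, red points met the call and black lines are the medians of the lists. Called genes lay in the lists of transporters and hexokinases, of factors acting on Slc2a4, of vesicle traffic, of receptor partners and, on the higher side, Pdk4.

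Some members share exonic bases with a gene on the opposite strand, and whether counting used strand is not stated in the sources used here. For Irs1 these were 2822 of 9144 exonic bases, shared with Gm9747, which had 0 counts in all 20 libraries, so that the level of Irs1 is uncertain. The shared part was 7.78% of exonic bases for Foxo1, 2.99% for Slc2a1 and 2.56% for Irs2, and 0% for the other 5 genes.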

How the data were processed

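The authors deposited 1 table of raw read counts per gene, with a column for each of 20 libraries. Per the labels and the submitters' processing notes, reads were handled with FastQC 0.11.9, Trim Galore 0.6.6, HISAT2 2.2.1 on mm10 and Subread 2.0.1, and edgeR (no version given) was used for testing. Between 74.4% and 89.2% of the counts above 0 in a library were even numbers, so an alternative with halved counts was run. Gene names, exons and overlaps came from GENCODE annotation of the same build.

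All 20 libraries were fitted together as 8 groups in edgeR 4.0.16 (R 4.3.3), with filterByExpr, TMM scaling and the quasi-likelihood test, and p-values were adjusted by Benjamini-Hochberg over 21464 genes. Log2 CPM used a prior count of 2, and 3 counts were taken as the floor. Each mouse is a separate biological replicate per the labels, and intervals for groups of 2 or 3 mice lean on the spread shared over all genes. DESeq2 1.42.0 and the other alternatives are described in the closing section. The script was tested on simulated counts.

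The members and gene lists were chosen with earlier results of these data known. Beside the 9 members, genes were named where a list of pathway genes held a call in any of the 4 comparisons (at most 5 a list, by p), and, for each member, the 2 genes with the highest Pearson r. Those nearest to Foxo1 are not reported here.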

Additional observations from a re-analysis of the deposited data

How the results depend on the processing

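Of the 9 genes, 3 were called in H against C under each alternative, or 4 where Insr joined them (DESeq2, its size factors in edgeR, no filter on low counts, halved counts), and 3 to 4 without each mouse in turn. The counts of 0 in HC and HHC held under each alternative and without each mouse in turn. In HH the count of 1 became 2 with DESeq2 and 2 without the 5 libraries that stood apart, a set chosen after seeing the data, 0 with no filter, 0 with an adjusted p under 0.05, and ran from 0 to 1 without each mouse in turn. Pik3r1 in HH was -0.70 relative to the adipocyte markers, a ratio also added after seeing the data. The count of differing H and HC effects was 0, also without each mouse in turn, and 2 with DESeq2.

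No value whose sign changed had met the call. For H against C, Irs2 (0.05) was -0.03 with DESeq2, -0.03 with its size factors, -0.04 with only the groups compared and -0.20 without the 5 libraries, Akt2 (0.28) was -0.49 without them, and Foxo1 (-0.03) was 0.01 with halved counts. In HC, Insr (0.10) was -0.36 without the 5 libraries and Slc2a1 (-0.05) was 0.08 with no filter and 0.01 with a replicate block. In HHC without the 5 libraries, Insr was 0.32, Irs1 0.17, Akt2 -0.10 and Tbc1d4 0.05. Without each mouse in turn the ranges were, in H, -0.18 to 0.26 for Irs2, -0.18 to 0.67 for Slc2a1 and -0.32 to 0.31 for Foxo1. In HC they were -0.31 to 0.30 for Insr, -0.01 to 0.70 for Irs2 and -0.30 to 0.10 for Slc2a1. In HH they were -0.05 to 0.77 for Insr and -0.64 to 0.21 for Tbc1d4. In HHC they were -1.49 to 0.24 for Insr, -1.08 to 0.09 for Irs1, -0.70 to 0.11 for Irs2, -0.40 to 0.75 for Akt2 and -0.13 to 0.23 for Foxo1. The cause was not tested.

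Counts over all genes moved more. Those called were 1392 in H (2163 with DESeq2, 2492 with no filter), 374 in HC (727 and 1764), 1458 in HH (2309 and 2879) and 669 in HHC (1185 and 1266). With an adjusted p under 0.05 they were 455, 0, 445 and 0, with the replicate block 1032, 204, 1040 and 375, and without each mouse in turn 757 to 1816, 160 to 597, 569 to 1306 and 138 to 1194 (fewest without H replicate 2, CC_s replicate 3, CC_l replicate 1 and CCC replicate 2). With only the groups compared HC had 243 and HHC 218, and without the 5 libraries HHC had 264. Replicate numbers were not treated as pairs in the main fit. After subtraction of the group means, same-numbered mice of different groups correlated at -0.586 to 0.282 in the short arm. In the long arm the values were -0.26 to 0.115. With 2 mice a group the deviations there are mirror images, so the check cannot decide whether the numbers pair mice. With the replicate block 3 of the 9 genes were called in H, 1 in HH and 0 in HC or HHC, and with the numbers of the long arm crossed, added after seeing the data, 1 in HH and 0 in HHC. Of the other pathway genes, Ralgapa2 in HHC also lost its call with DESeq2's size factors in edgeR (-1.23), halved counts (-1.16), no filter (-1.31), only the groups compared (-1.19) and the crossed block (-1.22). Further fits, not listed here, also ended calls of Slc2a13, Srebf1 and Mlxipl in HHC. The same held for Slc2a3, Slc2a5 and Sh2b1 in HH and for Hk2 in H. Groups of 2 or 3 mice limit what any of these fits can show.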
